A study of Mus musculus with 8 samples.

Results

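Chemokine ligands and their receptors were followed in RNA-seq data of mouse hepatic macrophages. A row of the count table was taken as a member when its symbol was that of a CC, CXC, XC or CX3C ligand (*Ccl*, *Cxcl*, *Xcl1*, *Cx3cl1* and *Pf4*), of a receptor of these ligands (*Ccr*, *Cxcr*, *Xcr1* and *Cx3cr1*) or of an atypical receptor (*Ackr* and *Ccrl2*). This gave 63 of 55401 rows, 40 ligands and 23 receptors. Of these, 41 genes, 27 ligands and 14 receptors, reached at least 0.5 CPM (counts scaled to the library's total counts) in at least 1 library and are described here. The members just inside this limit were *Cx3cl1* and *Ackr2*, whose highest libraries had 0.597 and 0.629 CPM, and those just outside it were *Ackr1* and *Ccl20*, with 0.483 and 0.358 CPM.

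The cells were F4/80-positive macrophages separated on magnetic columns and cultured on collagen-coated plates, and all mice had the C57BL/6J background. There were 4 groups of 2 libraries each. The groups labelled normal came from WT mice on a standard diet, and the groups labelled steatotic came from MC4R-KO mice that had eaten a Western diet over 6 to 10 weeks, so that genotype and diet cannot be told apart. In culture, the cells of each label received either cholesterol crystals (CC, 500 μg/ml, taken up into lysosomes) or vehicle (Veh) over 24 h. The groups are called normal Veh, normal CC, steatotic Veh and steatotic CC below. The labels do not say whether the libraries of a group came from separate animals or cultures, and the p-values therefore measure only the spread between these libraries, which may be technical.

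Chemokines are small secreted proteins that bind G protein-coupled receptors on leukocytes and direct their migration along a gradient. In the liver, Kupffer cells and infiltrating macrophages release CC chemokines that call in monocytes and T cells and CXC chemokines with an ELR motif that call in neutrophils, while their own receptors decide to which ligands they can respond. Atypical receptors bind or scavenge ligands without the usual G protein signal.

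Total counts ranged from 58668655 to 74529462 per library. The macrophage genes *Adgre1* (F4/80) and *Csf1r* were between 814 and 1739 CPM and between 1071 and 1693 CPM. The 7 macrophage markers summed to 10117 CPM or more in every library. With Veh 4 of them were higher and 2 (*Lyz2* and *Cd68*) lower with the label steatotic, and CC lowered 6 with the label normal, and lowered 5 and raised 1 with the label steatotic. Of 5 Kupffer cell markers, which summed to 2147 to 3971 CPM, 3 were higher and 2 (*Marco* and *Clec4f*) lower with the label steatotic with Veh, and CC lowered 3 with the label normal, and lowered 4 and raised 1 with the label steatotic. Hepatocyte markers summed to 149.8 to 157 CPM in normal Veh, 116 to 128 in normal CC, 105 to 119 in steatotic Veh and 48.3 to 55.0 in steatotic CC. The part of these shifts in the values of the members was not tested. *Mc4r*, the gene disrupted in MC4R-KO mice, was counted only with the label steatotic, which is that of the MC4R-KO mice. The libraries labelled normal had 0 counts of it, and those labelled steatotic had 28, 22, 53 and 72. Whether these counts come from the disrupted allele was not tested. The labels are used as given, an exchange of labels was not tested, and every direction between normal and steatotic rests on them. A gene was called when its adjusted p was under 0.05 in edgeR's quasi-likelihood test with Benjamini-Hochberg adjustment over 15202 tested genes. Called genes are said to be higher, lower, raised or lowered, and fold changes come from the same fit. In such bulk samples, fewer cells of a type and less RNA per cell cannot be told apart.

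The promoters of *Cxcl1*, *Cxcl2* and *Cxcl3* are shown because these neighbouring ligands of the neutrophil receptor CXCR2 were all raised by CC with both labels, by different amounts. The sequences are the 250 bases before the RefSeq transcription start on the plus strand of GRCm38.p6, at chr5:90890995-90891244 for *Cxcl1*, chr5:90903649-90903898 for *Cxcl2* and chr5:90785851-90786100 for *Cxcl3*. Capitals mark matches to the kappaB motif, the binding sequence of NF-κB, on either strand, which overlap here.
*Cxcl1*: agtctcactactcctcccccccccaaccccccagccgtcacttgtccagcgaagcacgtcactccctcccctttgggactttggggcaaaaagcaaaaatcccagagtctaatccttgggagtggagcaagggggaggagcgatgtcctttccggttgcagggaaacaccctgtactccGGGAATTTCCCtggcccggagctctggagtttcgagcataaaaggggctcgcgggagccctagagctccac
*Cxcl2*: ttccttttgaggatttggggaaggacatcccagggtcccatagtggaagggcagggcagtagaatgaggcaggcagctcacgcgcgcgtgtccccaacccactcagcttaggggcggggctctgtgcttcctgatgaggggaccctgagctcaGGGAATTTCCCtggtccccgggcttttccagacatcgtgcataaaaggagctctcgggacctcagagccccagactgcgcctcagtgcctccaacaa
*Cxcl3*: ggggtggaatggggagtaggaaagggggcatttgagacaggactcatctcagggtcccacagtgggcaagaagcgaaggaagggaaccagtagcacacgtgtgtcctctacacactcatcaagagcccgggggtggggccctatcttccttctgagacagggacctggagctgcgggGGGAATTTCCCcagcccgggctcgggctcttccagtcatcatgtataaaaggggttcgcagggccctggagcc
The same 11-base run, GGGAATTTCCC, began 71 bases before the start of *Cxcl1*, 97 before that of *Cxcl2* and 73 before that of *Cxcl3*. Read in this direction only, it was present in 12 of 32851 RefSeq promoters of 300 bases (250 before and 50 after the start), which is 0.0365%. These include the promoters shown. The run was chosen as the longest marked stretch that the shown promoters share, so this share is a description and not a test. The *Cxcl3* window also held the E-box CACGTG, a sequence bound by TFE3 and related factors, which was in 7.15% of all promoters, and those of *Cxcl1* and *Cxcl2* held none.

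Among the 41 members, 30 had a RefSeq promoter entry, with 35 promoters in all. A kappaB match was present in 10 of these 35 promoters, against 8.46% of all promoters. Of the 12 members raised by CC with both labels, 8 had an entry, with 10 promoters in all. A kappaB match was in 7 of these 10 promoters. Counted by gene, 7 of the 8 (*Ccl9*, *Ccr1*, *Ccrl2*, *Cxcl1*, *Cxcl2*, *Cxcl3* and *Cxcl10*) held a match in at least 1 promoter, against 2581 of all 27025 genes with an entry. *Ccl3* was the exception. Of the other 25 promoters 3 held a match, those of *Ackr2*, *Ccl27a* and *Ccr3*, and *Ccr3* was lowered by CC with both labels. The other motifs searched on both strands were AP-1 TGACTCA, in 4 of the 35 promoters against 5.20% of all, GAS TTCNNNGAA, in 1 against 8.30%, EGR1 GCGTGGGCG or GCGGGGGCG, in 1 against 3.47%, and ISRE, a pair of GAAA runs with any 2 bases between them, in 2 against 3.44%. The E-box was in 2 of the 35. A match describes these letters in this window and is not a binding site, and members without an entry, among them *Ccl2*, *Ccl4*, *Ccl5*, *Ccl7* and *Cxcl11*, were not searched.

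Of the 41 members, 35 were at 0.5 CPM or more in at least 1 library of every group, and 13 had a library over 100 CPM. Per kilobase of exon, the highest ligand level was that of *Ccl3* (MIP-1α) with the label normal, at 333 CPM per kb with Veh and 579 with CC, and that of *Ccl5* (RANTES) with the label steatotic, at 910.5 and 857. Among the receptors, *Cxcr4*, the receptor of CXCL12, was at 98.3 CPM per kb in normal Veh, 68.8 in normal CC, 72.0 in steatotic Veh and 62.3 in steatotic CC. *Ccr1*, which binds CCL3, CCL5 and other CC ligands, was at 8.54, 27.2, 30.7 and 95.9 CPM per kb in the same order, so that it lay below *Cxcr4* in the first 3 groups and above it in steatotic CC.

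**Figure D1:**
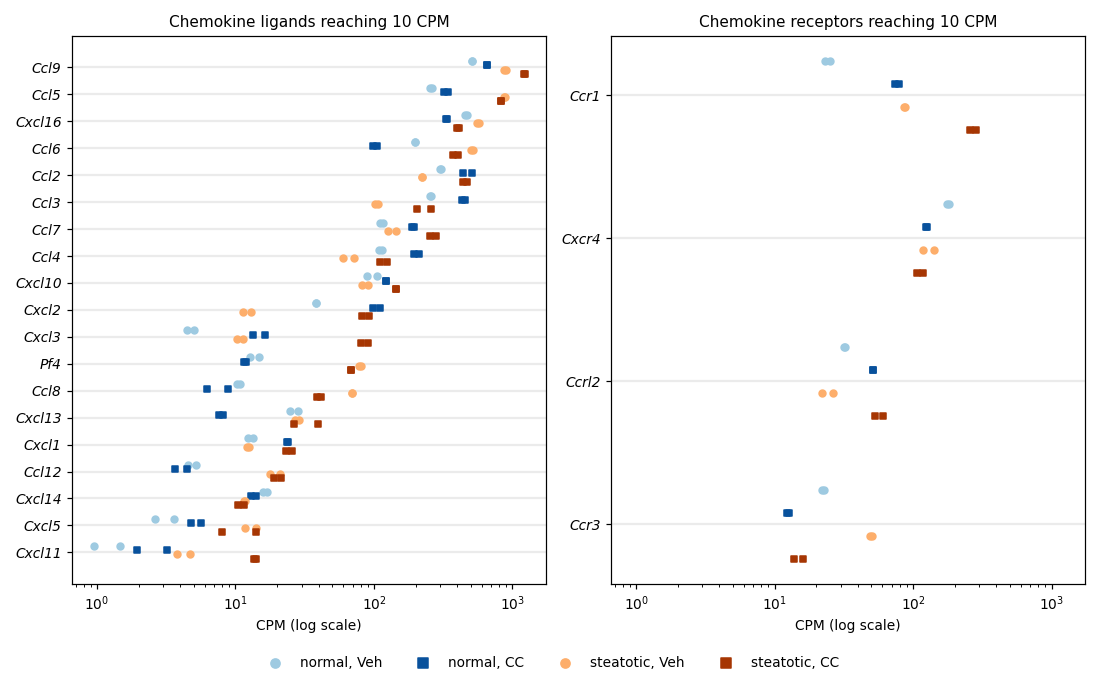
CPM on a log axis of the 19 ligands (left) and 4 of the receptors (right) whose highest library reached 10 CPM, with 1 point per library and 2 libraries in each of the 4 groups (circles Veh, squares CC, blue labelled normal, orange labelled steatotic). *Ccr1* rises from 23.3 to 25.1 CPM in normal Veh to 257 to 287 CPM in steatotic CC, and *Cxcl3* reaches 80.9 CPM or more in steatotic CC alone.

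The question of the comparison with Veh was how macrophages of the liver labels differed without crystals. Of the 41 members, 20 were higher and 8 lower with the label steatotic, where 16.4% of all tested genes were called higher, 14.3% lower and 30.7% in either direction. By over 1 on the log2 scale 17 were higher and 3 lower (5.99% and 3.12% of all tested genes). These counts include *Xcl1*, which together with *Ackr2* reached 0.5 CPM only with the label steatotic. The median log2 difference was 0.69 over the members and -0.01 over all tested genes. *Xcl1* (3.04) and *Ackr2* (2.39) are included in the 0.69 and lie above it, so that it would be lower without them. Of the 14 receptors, 7 were higher, among them *Ccr1*, *Ccr2*, *Ccr3* and *Xcr1*, and 3 lower (*Ccr7*, *Ccrl2* and *Cxcr4*). The call of *Ccrl2* was lost without any 1 of the 4 normal libraries or steatotic Veh replicate 2, and that of *Cxcr4* without normal Veh replicate 1. Of the 27 ligands, 13 were higher and 5 lower (*Ccl2*, *Ccl3*, *Ccl4*, *Cxcl2* and *Cxcl14*).

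*Ccr1* differed between the labels and responded to CC with both. Its libraries were at 25.1 and 23.3 CPM in normal Veh, 79.4 and 74.6 in normal CC, 87.4 and 86.6 in steatotic Veh and 287 and 257 in steatotic CC. The libraries of normal CC thus stayed below those of steatotic Veh. *Ccr1* was 3.71-fold higher with the label steatotic with Veh (log2 1.89, SE 0.0690, adjusted p = 1.65e-06). CC raised it 3.27-fold with the label normal (adjusted p = 2.71e-05) and 3.16-fold with the label steatotic (adjusted p = 4.38e-06), and the difference between these responses was -0.05 on the log2 scale (SE 0.0941, adjusted p = 0.888).

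*Ccr2*, the CCL2 receptor of inflammatory monocytes, was at 0.737 and 0.876 CPM in normal Veh, 1.01 and 0.767 in normal CC, 8.78 and 8.67 in steatotic Veh and 4.79 and 5.43 in steatotic CC. It was 11.2-fold higher with the label steatotic with Veh (log2 3.48, SE 0.20, adjusted p = 1.50e-05) and 5.84-fold higher with CC (adjusted p = 7.09e-05). CC lowered it with the label steatotic by 0.75 (adjusted p = 0.0192), a call lost without any library of either steatotic group. The 5 monocyte markers *Ly6c2*, *Plac8*, *S100a4*, *F13a1* and *Chil3* were all higher with the label steatotic with either treatment, as *Ccr2* was. CC lowered 1 of the 5 with each label, and *Ccr2* was not called for CC with the label normal (0.18, adjusted p = 0.658). The summed level of the 5 markers was 17.8 to 18.2 CPM in normal Veh, 11.6 CPM in both normal CC libraries, 152 to 153 CPM in steatotic Veh and 109 to 119 CPM in steatotic CC. Their part in the levels of *Ccr2* and of the other members was not tested.

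Of the other receptors at low levels, *Xcr1*, *Cxcr6* and *Cxcr3* were higher with the label steatotic with Veh. *Xcr1*, the XCL1 receptor of cross-presenting dendritic cells, was at 0.833 to 1.30 CPM in the 4 normal libraries and at 4.56 to 6.67 CPM in the 4 steatotic ones (6.14-fold with Veh, adjusted p = 0.000116). *Cxcr6*, a receptor of CXCL16 on T and NKT cells, was at 0.409 to 0.604 CPM with the label normal and at 2.70 to 3.34 CPM with the label steatotic (5.59-fold with Veh, adjusted p = 0.000201). *Cxcr3*, the receptor of CXCL9, CXCL10 and CXCL11 on activated T cells, was 2.60-fold higher with Veh (adjusted p = 0.0451) and was lowered by CC with the label steatotic by 1.51 (adjusted p = 0.0415), and these calls were lost in 6 and 7 of the 8 fits that left out a library, in both cases without any normal library or either steatotic Veh library. All 9 T and NK cell markers were higher with the label steatotic with either treatment, and they summed to 1.89 to 2.42 CPM in the normal libraries and to 15.4 to 20.6 CPM in the steatotic ones. Of the 5 dendritic cell markers 4 were tested, and with Veh 1 was higher and 1 lower with the label steatotic. *Clec9a* was at 0.604 to 1.59 CPM with the label normal and at 1.55 to 2.20 CPM with the label steatotic, *Flt3* was at 0.170 to 1.23 CPM with the label normal and at 0 to 0.0537 CPM with the label steatotic, and *Cd209a* was at or near 0. With CC none of them was higher and *Flt3* was lower. The 5 summed to 8.61 to 9.42 CPM in normal Veh, 13.9 to 15.8 in normal CC, 9.24 to 10.9 in steatotic Veh and 10.8 to 11.5 in steatotic CC. Endothelial markers also differed between the labels with Veh, with 4 of 5 tested higher and 1 lower and sums of 138 to 143 CPM in normal Veh, 165 to 169.8 in normal CC, 238 to 242 in steatotic Veh and 214 to 226 in steatotic CC. The part of such cells in these values was not tested.

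The ligand of XCR1 was detected mainly with the label steatotic. *Xcl1*, made mainly by T and NK cells, was at 0.397 and 0.287 CPM in normal Veh, 0.192 and 0.0682 in normal CC, 3.001 and 2.49 in steatotic Veh and 2.87 and 3.11 in steatotic CC. The steatotic libraries all lay above the normal ones. *Xcl1* reached the limit of 0.5 CPM only in the steatotic libraries, so that it had to differ between the labels, and it is given as a description with no test. Both normal CC libraries were at or below the level of 3 fragments, which was 0.161 to 0.205 CPM across the libraries.

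Several other ligands formed separate ranges with the labels. *Pf4* (CXCL4), best known from platelet granules and also made by macrophages, was at 14.7 and 12.6 CPM in normal Veh, 11.97 and 11.6 in normal CC, 78.5 and 80.9 in steatotic Veh and 68.6 and 68.0 in steatotic CC. It was 6.01-fold higher with the label steatotic with Veh (log2 2.59, SE 0.0817, adjusted p = 1.01e-06) and was not called for CC with either label. The platelet markers *Itga2b*, *Gp9*, *Gp1bb*, *Gp6* and *Ppbp* summed to at most 0.915 CPM in any library. *Ccl8* (MCP-2), which acts through CCR8 in mice, was at 10.8 and 10.3 CPM in normal Veh, 8.88 and 6.19 in normal CC, 69.5 and 69.2 in steatotic Veh and 39.1 and 41.6 in steatotic CC. It was 6.81-fold higher with Veh (adjusted p = 2.03e-05), and CC lowered it with the label steatotic by 0.77 (SE 0.15, adjusted p = 0.00887), which was lost without steatotic CC replicate 1. With the label normal the change of -0.44 was not called by edgeR (adjusted p = 0.117) and was by DESeq2. The responses were not called different (-0.32, SE 0.21, adjusted p = 0.580).

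*Ccl12* (MCP-5), a ligand of CCR2, was at 5.21 and 4.51 CPM in normal Veh, 3.69 and 4.48 in normal CC, 21.1 and 17.7 in steatotic Veh and 21.4 and 19.1 in steatotic CC. The level was 4.11-fold higher with the label steatotic with Veh (adjusted p = 4.66e-05) and 5.05-fold higher with CC (adjusted p = 2.92e-05), and no change with CC was called. *Cxcl5* (LIX), an ELR ligand of CXCR2, was at 3.58 and 2.61 CPM in normal Veh, 4.76 and 5.68 in normal CC, 14.2 and 11.8 in steatotic Veh and 14.1 and 7.98 in steatotic CC. It was 4.32-fold higher with the label steatotic with Veh (adjusted p = 0.00248) and 2.16-fold higher with CC (adjusted p = 0.0327). The last call was lost without either normal CC library, either steatotic Veh library or steatotic CC replicate 1.

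The 5 ligands that were lower with the label steatotic with Veh were lower by 1.32-fold to 3.03-fold. *Cxcl2* and *Ccl3* were 3.03-fold and 2.38-fold lower, *Ccl4* (MIP-1β) 1.65-fold lower and *Ccl2* (MCP-1), the main monocyte attractant, 1.32-fold lower, all with adjusted p of 0.00453 or less. The constitutively made *Cxcl14* was 1.36-fold lower (adjusted p = 0.0104), a call lost without normal Veh replicate 1 or steatotic Veh replicate 2. *Ccr7*, which guides mature dendritic cells to lymph nodes, was at 1.57 and 1.93 CPM in normal Veh and at 0.644 and 0.163 CPM in steatotic Veh (adjusted p = 0.0391), a call lost without any 1 of the 4 normal libraries or steatotic Veh replicate 2.

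**Figure D2:**
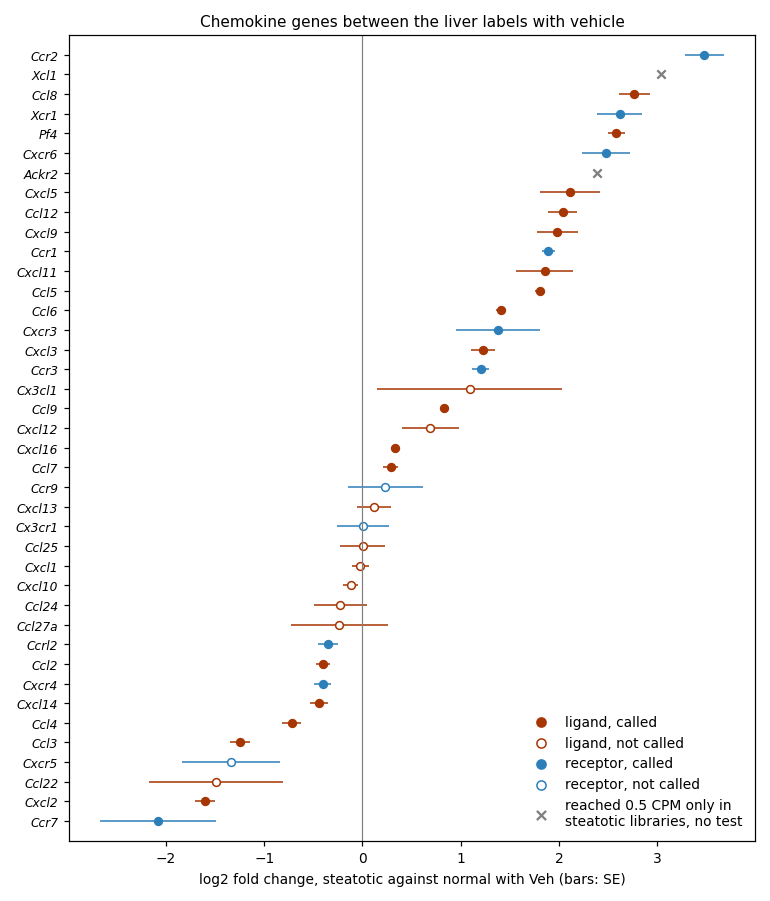
Log2 fold change of 40 of the 41 members between steatotic Veh and normal Veh, with SE bars, ordered by size (red ligands, blue receptors, filled symbols called). *Ccr2* has the highest value at 3.48 and *Ccr7* the lowest at -2.08, and grey crosses mark *Xcl1* and *Ackr2*, which reached 0.5 CPM only in steatotic libraries and are drawn with no test.

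The CC comparisons asked which members responded to the crystals with each label. With the label normal, 14 members were raised and 5 lowered, where 6.27% and 5.54% of all tested genes were (11.8% in either direction), and 5 were raised and 1 lowered by over 1 on the log2 scale (1.11% and 0.717% of all). With the label steatotic, 13 were raised and 7 lowered, where 12% and 10.9% of all tested genes were (22.9% in either direction), and 10 were raised and 2 lowered by over 1 (3.5% and 1.55% of all). Raised with both labels were 12 members: the ELR ligands *Cxcl1*, *Cxcl2* and *Cxcl3*, the CXCR3 ligands *Cxcl10* and *Cxcl11*, the CC ligands *Ccl2*, *Ccl3*, *Ccl4*, *Ccl7* and *Ccl9*, and the receptors *Ccr1* and *Ccrl2*. *Ccl6*, *Ccr3* and *Cxcl16* were lowered with both labels. The shares of all tested genes raised or lowered with both labels are not given here, so these counts have no background beside them.

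The ELR ligands *Cxcl3* and *Cxcl2* had the largest called increases with the label steatotic, and their responses differed between the labels. *Cxcl3* was at 4.49 and 5.04 CPM in normal Veh, 16.2 and 13.4 in normal CC, 11.4 and 10.3 in steatotic Veh and 90.2 and 80.9 in steatotic CC. CC raised it 3.19-fold with the label normal (log2 1.67, SE 0.12, adjusted p = 0.000172) and 8.01-fold with the label steatotic (log2 3.002, SE 0.12, adjusted p = 4.50e-06). The responses differed by 1.33 on the log2 scale (SE 0.17, adjusted p = 0.00680), and the steatotic CC libraries lay above all others. Of the 6 stellate cell or fibroblast markers, *Dcn* was also highest in steatotic CC, at 2.07 to 2.14 CPM in normal Veh, 5.69 to 7.002 in normal CC, 17.4 to 20.8 in steatotic Veh and 108 to 135 in steatotic CC. The other 5, *Col1a1*, *Col1a2*, *Col3a1*, *Lrat* and *Reln*, were at 0.395 CPM or less in every library, and the part of such cells in the ligand values was not tested.

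*Cxcl2* (MIP-2) started lower and rose further with the label steatotic. It was at 37.8 and 38.4 CPM in normal Veh, 109.9 and 98.0 in normal CC, 13.04 and 11.3 in steatotic Veh and 92.8 and 81.7 in steatotic CC. The increase was 2.80-fold with the label normal (log2 1.48, SE 0.0957, adjusted p = 0.000109) and 7.25-fold with the label steatotic (log2 2.86, SE 0.10, adjusted p = 2.92e-06), a difference of 1.37 (SE 0.13, adjusted p = 0.00329). With CC the labels differed by -0.23 (SE 0.0934), which was not called (adjusted p = 0.115). The Veh libraries enter both the difference between labels and the response to CC, so these values are not independent. *Cxcl2* and *Cxcl3* share 4.57% and 2.78% of their 75-base exon windows with each other, and reads from such stretches could be assigned to either gene.

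*Cxcl1* (KC), the third raised ELR ligand, was at 13.3 and 12.4 CPM in normal Veh, 23.8 and 23.7 in normal CC, 12.4 and 12.1 in steatotic Veh and 25.7 and 23.2 in steatotic CC. Its CC libraries lay above its Veh libraries with each label, and the labels overlapped. The rise was 1.89-fold (adjusted p = 0.000545) and 2.02-fold (adjusted p = 0.000127), and the responses differed by 0.09 (SE 0.12, adjusted p = 0.804). *Cxcl5* was not called for CC with either label, with 0.79 on the log2 scale with the label normal (adjusted p = 0.166) and -0.21 with the label steatotic (adjusted p = 0.672). DESeq2 called its rise with the label normal. Of the markers of neutrophils, the main cells with CXCR2, *Ly6g* had no count in any library, *S100a9*, *Retnlg* and *Camp* were at 0.282 CPM or less, *S100a8* was at 4.29 to 19.2 CPM and *Mmp8* at 46.4 to 243 CPM. The last 2 were at their highest in the steatotic CC libraries, and the part of such cells in the ligand values was not tested.

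The interferon-induced CXCR3 ligands attract activated T and NK cells. *Cxcl10* (IP-10) was at 89.6 to 104 CPM in normal Veh, at 82.5 to 90.3 CPM in steatotic Veh and at 122 to 143 CPM in the CC groups, with a rise of 1.29-fold with the label normal (adjusted p = 0.0202) and 1.68-fold with the label steatotic (adjusted p = 0.000365). The call with the label normal was lost without normal Veh replicate 1 or either normal CC library. *Cxcl11* (I-TAC) was at 0.949 and 1.46 CPM in normal Veh, 1.95 and 3.20 in normal CC, 4.67 and 3.79 in steatotic Veh and 13.6 and 13.99 in steatotic CC. Its 4 groups did not overlap, and CC raised it 3.30-fold with the label steatotic (adjusted p = 0.00345) and 2.19-fold with the label normal (adjusted p = 0.0471). The last call was lost under 10 of 19 alternatives, 6 of them fits without normal Veh replicate 1, normal CC replicate 2 or any 1 of the 4 steatotic libraries. GENCODE annotates *Cxcl11* as a polymorphic pseudogene, since its reading frame is broken in the C57BL/6 reference. *Cxcl9* (MIG) was at 1.13 to 1.57 CPM with the label normal and 3.17 to 5.33 CPM with the label steatotic, and no change with CC was called. Exons of *Cxcl10* and *Cxcl11* overlap antisense genes (*Art3* and *Gm2673*), and the use of strand in counting is not given in the sources used here.

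Of the 3 CC ligands of CCR2, which draw monocytes from the blood, *Ccl2* and *Ccl7* were raised by CC with both labels and *Ccl12* was not called. *Ccl2* was at 303 and 301 CPM in normal Veh, 507 and 436 in normal CC, 222 in both libraries of steatotic Veh and 472 and 437 in steatotic CC. CC raised it 1.60-fold with the label normal (adjusted p = 0.00100) and 2.07-fold with the label steatotic (adjusted p = 5.24e-05). The difference of 0.37 between the responses (SE 0.10) was not called (adjusted p = 0.118), and the CC levels overlapped between the labels. *Ccl7* (MCP-3) was at 111 and 117 CPM in normal Veh, 193 and 189.6 in normal CC, 143 and 126 in steatotic Veh and 282 and 252 in steatotic CC. It rose 1.73-fold (adjusted p = 0.000702) and 2.01-fold (adjusted p = 8.64e-05), and with CC it was 1.42-fold higher with the label steatotic (adjusted p = 0.00221).

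The MIP-1 family and the other ligands of CCR1 fell into different patterns. *Ccl3* was at 258 and 252 CPM in normal Veh, 458 and 429 in normal CC, 106 and 102 in steatotic Veh and 257 and 206 in steatotic CC. With the label steatotic, CC brought *Ccl3* only to about the Veh level of the label normal, although the rise was 2.25-fold (adjusted p = 0.000369) against 1.78-fold (adjusted p = 0.00345) and the responses were not called different (0.34, SE 0.14, adjusted p = 0.359). *Ccl4*, next to *Ccl3* on chromosome 11, went from 109 to 114 CPM up to 194 to 211 CPM with the label normal and from 59.5 to 71.4 CPM up to 111 to 124 CPM with the label steatotic. These were rises of 1.87-fold (adjusted p = 0.00164) and 1.82-fold (adjusted p = 0.000920). *Ccl9* (MIP-1γ), an abundant ligand of CCR1, rose from 510.0 to 514 CPM up to 654 to 659.9 CPM with the label normal (1.32-fold, adjusted p = 0.000355) and from 864 to 904 CPM up to 1219 to 1222 CPM with the label steatotic (1.40-fold, adjusted p = 4.98e-05).

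*Ccl5*, a T cell and monocyte attractant, was at 254 and 262 CPM in normal Veh, 345 and 319 in normal CC, 879 and 869 in steatotic Veh and 824 and 822 in steatotic CC. All steatotic libraries were above all normal ones, 3.50-fold with Veh (log2 1.81, SE 0.0438, adjusted p = 3.96e-07). CC raised it 1.32-fold with the label normal (adjusted p = 0.00100), while the value with the label steatotic was -0.07 (adjusted p = 0.299), and these responses differed by -0.47 (SE 0.0601, adjusted p = 0.00736). *Ccl6* (C10), a CCR1 ligand of myeloid cells, was at 199 and 198 CPM in normal Veh, 104 and 98.7 in normal CC, 515 and 506 in steatotic Veh and 403 and 369.5 in steatotic CC. It fell by 0.93 on the log2 scale with the label normal (SE 0.0517, adjusted p = 6.54e-05) and by 0.38 with the label steatotic (SE 0.0511, adjusted p = 0.00131), a difference of 0.55 (SE 0.0724, adjusted p = 0.00870). *Ccl22*, a ligand of CCR4 made by dendritic cells and macrophages, was raised with the label normal, from 0.340 and 0.664 CPM to 3.99 and 2.71 CPM (adjusted p = 0.0283). That call was lost without any 1 of the 4 normal libraries or either steatotic CC library. With the label steatotic *Ccl22* went from 0.293 and 0.0544 CPM to 0.549 and 0.644 CPM. This change of 1.81 was not called by edgeR (adjusted p = 0.105) and was by DESeq2. The responses were not called different (-0.97, SE 0.91, adjusted p = 0.722). The dendritic marker *Fscn1* was at 6.05 to 7.02 CPM in normal Veh and at 9.97 to 12.1 CPM in normal CC.

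*Cxcl13*, the B cell attractant that binds CXCR5, had the largest called difference between the responses. It was at 24.8 and 28.1 CPM in normal Veh, 7.63 and 8.08 in normal CC, 28.6 and 26.9 in steatotic Veh and 26.6 and 39.5 in steatotic CC. Only the normal CC libraries stood apart, below the others. CC lowered it with the label normal by 1.71 (SE 0.18, adjusted p = 0.00149). With the label steatotic the value was 0.27 (SE 0.17, adjusted p = 0.344), and it was -0.0406 without steatotic CC replicate 2 and 0.52 (adjusted p = 0.0213) without replicate 1. The responses differed by 1.98 (SE 0.25, adjusted p = 0.0100), with adjusted p of 0.0564, 0.0510 and 0.0537 without normal CC replicate 1, normal CC replicate 2 and steatotic Veh replicate 2.

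*Cxcl16*, which is both a membrane-bound scavenger receptor and the ligand of CXCR6, was at 455 to 469 CPM in normal Veh, 329.6 to 338 CPM in normal CC, 551 to 576 CPM in steatotic Veh and 399.8 to 411 CPM in steatotic CC. CC lowered it by 0.43 with the label normal (adjusted p = 0.000510) and by 0.46 with the label steatotic (adjusted p = 0.000141). Its exons overlap *Zmynd15* on the opposite strand.

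Among the receptors, *Ccr3* had the largest decrease. This receptor, known from eosinophils and bound by CCL5, CCL11 and CCL24, was at 22.8 and 22.0 CPM in normal Veh, 12.4 and 12.7 in normal CC, 49.2 and 50.9 in steatotic Veh and 13.9 and 16.2 in steatotic CC. The labels were apart with Veh and close with CC. CC lowered *Ccr3* by 0.80 with the label normal (SE 0.0866, adjusted p = 0.00107) and by 1.72 with the label steatotic (SE 0.0876, adjusted p = 1.20e-05), a difference of -0.92 (SE 0.12, adjusted p = 0.00875). With CC the labels differed 1.22-fold (adjusted p = 0.0417), a call lost with DESeq2 and without any 1 library other than steatotic CC replicate 1.

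*Ccrl2*, an atypical receptor that binds chemerin without signalling, was raised by CC with both labels. It was at 32.3 and 31.7 CPM in normal Veh, 51.5 and 51.0 in normal CC, 26.4 and 22.2 in steatotic Veh and 61.0 and 52.9 in steatotic CC. The rise was 1.65-fold (adjusted p = 0.00356) and 2.38-fold (adjusted p = 0.000107). The difference of 0.53 (SE 0.14) was not called in the main edgeR fit (adjusted p = 0.112). It was called by DESeq2 (adjusted p = 0.0436) and by edgeR on all genes with any count. *Cxcr4* was at 174 to 181 CPM in normal Veh, 124 to 125 CPM in normal CC, 118 to 142 CPM in steatotic Veh and 107 to 118 CPM in steatotic CC. It was lowered by CC with the label normal by 0.48 (adjusted p = 0.0141), which was lost without any 1 of the 4 normal libraries. *Ccr9*, the CCL25 receptor of gut-homing cells, was raised with the label steatotic, from 0.530 to 1.08 CPM up to 1.89 to 2.06 CPM (adjusted p = 0.0435), a call lost without any 1 library other than steatotic Veh replicate 1. With the label normal its change of 0.94 was not called (adjusted p = 0.180), and the responses were not called different (0.37, adjusted p = 0.831). The exons of *Ccr9* overlap other genes on both strands. *Ccr7* was at 5.85 and 4.70 CPM in normal CC, a change of 1.63 from normal Veh that was not called in the main fit (SE 0.54, adjusted p = 0.116). It was called by DESeq2, with counts divided by 4 and with only the 4 libraries compared.

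**Figure D3:**
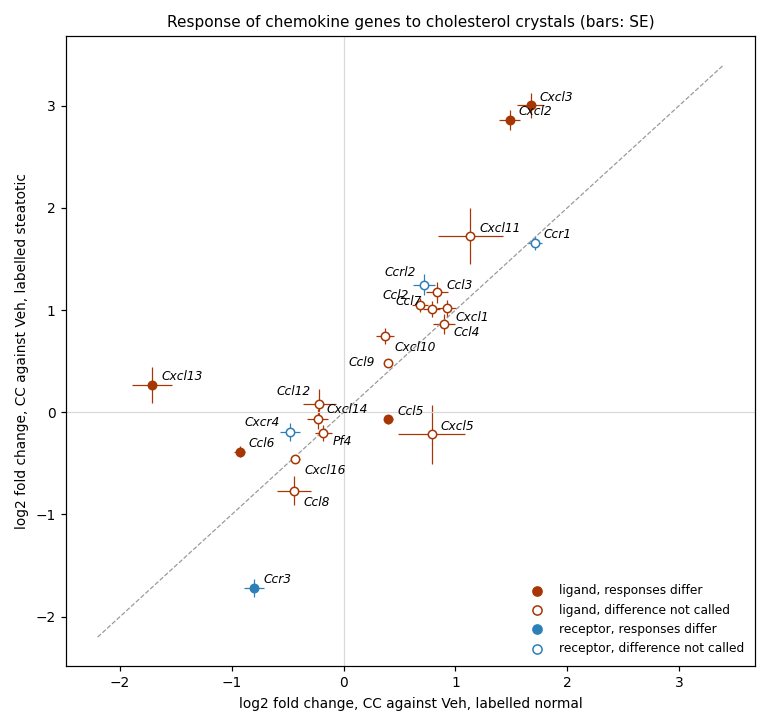
Log2 fold change with CC in the libraries labelled normal (x axis) and labelled steatotic (y axis) for members that reached 10 CPM, with SE bars and a line of equal responses (filled symbols: responses called different). *Cxcl3*, *Cxcl2*, *Ccl6* and *Cxcl13* lie above the line and *Ccr3* and *Ccl5* below it, and *Ccr1* lies on it at 1.71 and 1.66.

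The difference between the CC responses was called for 6 of the 41 members, 4 higher and 2 lower with the label steatotic, where 1.95% and 1.27% of all tested genes were called, 3.22% in either direction. It was over 1 on the log2 scale for *Cxcl2*, *Cxcl3* and *Cxcl13*, and 0.71% of all tested genes were that much higher and 0.197% that much lower. The 6 were *Cxcl2*, *Cxcl3*, *Cxcl13* and *Ccl6* on one side and *Ccl5* and *Ccr3* on the other. Their patterns differed: *Cxcl2* and *Cxcl3* rose with both labels, *Ccl6* and *Ccr3* fell with both, and *Ccl5* and *Cxcl13* were called with the label normal alone. Between the labels with CC, 21 members were higher and 4 lower with the label steatotic, where 15.9% and 12.9% of all tested genes were called (28.8% in either direction), and the higher ones again include *Xcl1*. By over 1 on the log2 scale 16 were higher and 2 lower, against 6.04% and 2.37% of all tested genes. The lower ones were *Ccl3*, *Ccl4*, *Ccl22* and *Ccr7*, and the calls of *Ccl22* and *Ccr7* were lost without normal CC replicate 1 or steatotic CC replicate 2 (*Ccl22* also without steatotic CC replicate 1, *Ccr7* also without normal CC replicate 2). *Ccl2* was then at -0.03 (SE 0.0708, adjusted p = 0.825) and *Cxcl1* at 0.07 (SE 0.0841, adjusted p = 0.584).

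Ligands and receptors were set side by side by the pairs known in mice. The 5 measured ligands of CCR1 (*Ccl3*, *Ccl5*, *Ccl6*, *Ccl7* and *Ccl9*) summed to 1338 ± 1.73 CPM (SD, n = 2) in normal Veh, 1725 ± 48.8 in normal CC, 2507 ± 56.9 in steatotic Veh and 2928 ± 80.3 in steatotic CC. *Ccr1* had the same order of groups. The 3 ligands of CCR2 summed to 420.5 ± 1.80 CPM in normal Veh, 667 ± 51.7 in normal CC, 376 ± 15.2 in steatotic Veh and 742 ± 47.7 in steatotic CC, so that with the label steatotic CC went with more ligand and less *Ccr2*. These sums add genes of different exon length and are compared only between groups.

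The 4 ELR ligands of CXCR2 summed to 58.8 ± 0.619 CPM in normal Veh, 148 ± 9.77 in normal CC, 48.2 ± 3.98 in steatotic Veh and 208 ± 20.5 in steatotic CC. Their receptor *Cxcr2* had no count in 6 of the 8 libraries and at most 0.0762 CPM in the others, below 3 fragments. The macrophage libraries thus held the ligands with almost no transcript of the receptor. CCR7 was the reverse case, with *Ccr7* measured and its ligands *Ccl19* and *Ccl21a* without a count. *Cxcr5* at 0.875 CPM or less in the group means stood beside *Cxcl13*, and *Cxcr6* beside the abundant *Cxcl16*. *Cx3cr1*, the fractalkine receptor of patrolling monocytes, was at 2.04 to 2.39 CPM in the group means and was called in no comparison, and its ligand *Cx3cl1* reached 0.597 CPM.

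**Figure D4:**
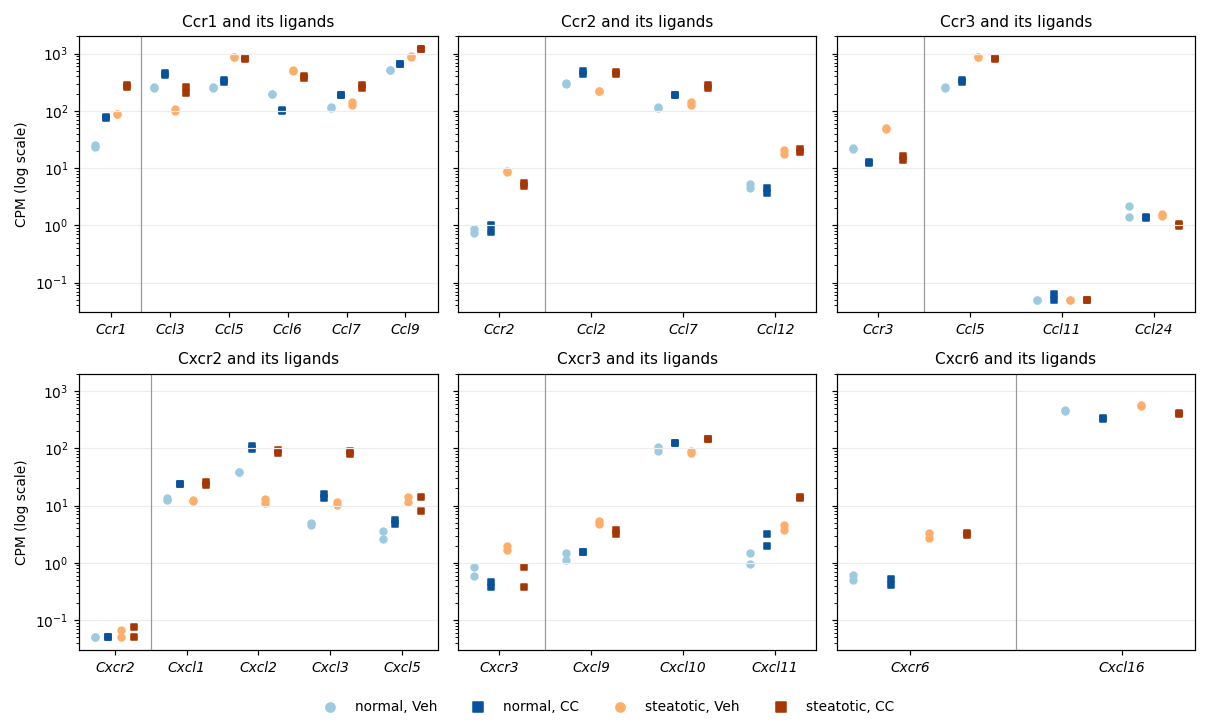
CPM on a log axis of 6 receptors (left of the grey line in each panel) and their ligands, with 1 point per library and the groups as circles (Veh) and squares (CC). Values below 0.05 CPM are drawn at 0.05 CPM, among them those of *Cxcr2* in the 6 libraries where it had no count. *Ccr1* lies highest in steatotic CC, and *Ccr2* lies between 4.79 and 8.78 CPM in the steatotic libraries and at or below 1.01 CPM in the normal ones.

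The members lie in clusters, in which some neighbours moved alike with CC and others did not. On chromosome 11 of GRCm38, *Ccl2*, *Ccl7*, *Ccl12* and *Ccl8* lie between 82035571 and 82116799. *Ccl2* and *Ccl7* were raised by CC with both labels, while *Ccl12* was not called. *Ccl8* was lowered with the label steatotic, and its responses were not called different. Further along, between 83525778 and 83664683, lie *Ccl5*, *Ccl9*, *Ccl6*, *Ccl3* and *Ccl4*, of which *Ccl9*, *Ccl3* and *Ccl4* were raised with both labels and *Ccl6*, between *Ccl9* and *Ccl3*, was lowered with both. On chromosome 5 the ELR ligands and *Pf4* lie between 90759360 and 90905938. *Cxcl3*, *Cxcl1* and *Cxcl2* were raised with both labels, and *Cxcl5* and *Pf4*, which lie before *Cxcl3*, were not called for CC.

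The receptor genes on chromosome 9 include *Ccr1*, *Ccr3* and *Ccr2* between 123962124 and 124113557. With the label steatotic, CC raised *Ccr1* and lowered *Ccr3* and *Ccr2*, while each was higher with this label than with the label normal with Veh. *Ccr2* shares 1.16% of its 75-base exon windows with another gene.

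**Figure D5:**
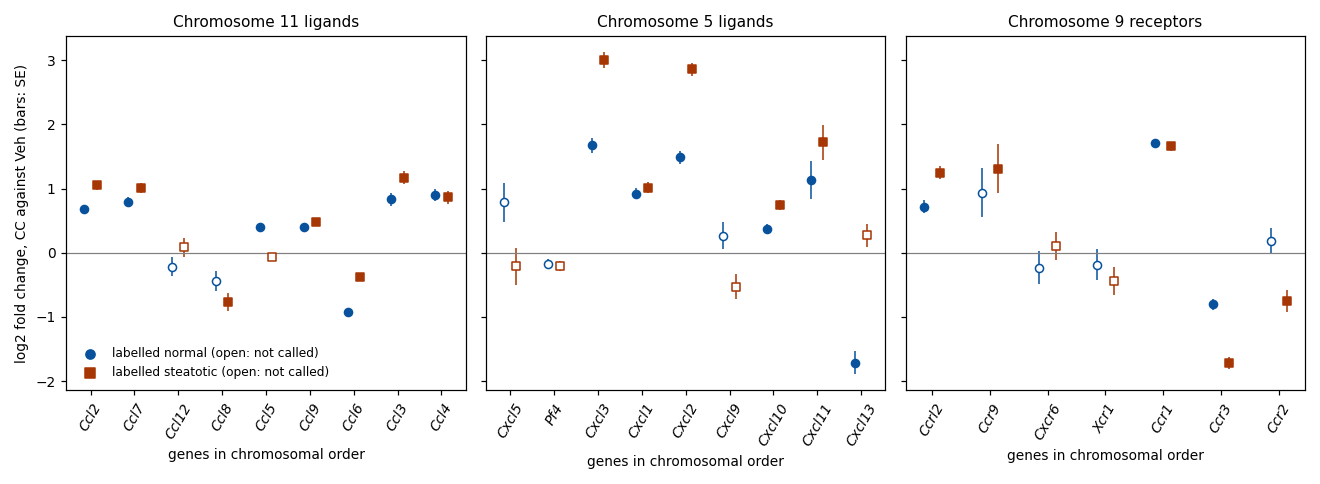
Log2 fold change with CC, with SE bars, of the ligands of chromosome 11 (left), the ligands of chromosome 5 (middle) and receptors of chromosome 9 (right) in chromosomal order (circles labelled normal, squares labelled steatotic, open symbols not called). *Ccl6* is at -0.93 and -0.38 between *Ccl9* and *Ccl3*, and *Ccr1* is at 1.71 and 1.66 next to *Ccr3* at -0.80 and -1.72.

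Genes that act after chemokine receptors (G proteins, PI3K subunits, Rac exchange factors, integrin adaptors, arrestins and RGS proteins) were counted for comparison. Of 43 listed genes 42 were tested. With Veh 29 were higher and 1 lower with the label steatotic, where 16.4% and 14.3% of all tested genes were. CC raised 1 and lowered 9 with the label normal (6.27% and 5.54% of all) and raised 3 and lowered 20 with the label steatotic (12% and 10.9% of all). With CC 21 were higher and 2 lower with the label steatotic (15.9% and 12.9% of all). *Rgs1*, which shortens the signal of G proteins after chemokine receptors, was the only one lower with the label steatotic with Veh (-0.98, adjusted p = 3.59e-05) and was raised by CC by 0.60 and 1.13 (adjusted p = 0.00138 and 2.63e-05). *Rassf5* (RAPL), which links Rap1 to integrin activation, was lowered by CC by 0.80 and 1.31 (adjusted p = 0.000286 and 9.90e-06), and *Arrb2* (β-arrestin 2), which ends receptor signals and drives their internalisation, by 0.48 and 0.80 (adjusted p = 0.00186 and 6.85e-05).

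No comparison called 8 of the 41 members: *Ackr2*, *Ccl24*, *Ccl25*, *Ccl27a*, *Cx3cl1*, *Cx3cr1*, *Cxcl12* and *Cxcr5*. The share of all tested genes called in no comparison is not given here. *Cxcl12*, the stromal ligand of CXCR4, was at group means of 0.724 to 1.47 CPM, and *Ccl24* (eotaxin-2) at 1.02 to 1.81 CPM. *Ccl27a* shares 33.3% of its 75-base exon windows with other genes and is uncertain. Of the 22 members under the limit, 9 had no count in any library, among them *Ccl19*, *Ccl21a*, *Ccl26* and *Ccr8*. The other 13 had at most 0.483 CPM, among them the scavenger *Ackr1*, the CCL20 receptor *Ccr6* and the dendritic ligand *Ccl17*, and levels under 3 fragments, 0.161 to 0.205 CPM, could not be told from 0 at this depth. These limits cover counting error only.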

How the data were processed

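Poly(A) RNA of 8 libraries was measured by RNA-seq. The authors used fastp, HISAT2 with mm10 and then StringTie (versions not given in the sources used here) and deposited expected counts (estimated counts per gene, not normalized, whole numbers as deposited). About 4 counts stood for 1 fragment, judged from an excess of multiples of 4 among small values. A gene was tested if any library reached 0.5 CPM (15202 of 28711 genes with any count), using edgeR 4.0.16 in R 4.3.3 (TMM, glmQLFit with robust estimation, glmQLFTest, 1 model of 4 group means, 5 contrasts, default prior count 0.125), with Benjamini-Hochberg adjustment over all tested genes in each contrast. CPM values are scaled to total counts only, and fold changes to TMM factors as well (0.981 to 1.03). The common biological coefficient of variation was 0.171, and log2 CPM of replicates correlated with r of 0.983 to 0.985 across genes.

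Members, marker lists, signalling genes and pairs were chosen with earlier results of these data known. Values in every library are given for members that reached 10 CPM and passed with a log2 change beyond 1 in a contrast, and for those whose CC responses differed. The values of 1 member, which is included in the counts, are not reported here. *Ccr2*, *Xcl1* and *Ccl22* were added to the members given in every library after their values were seen. Lengths, positions and overlaps come from GENCODE M21 (GRCm38), and promoters from RefSeq (GRCm38.p6). Alternatives were DESeq2 1.42.0, its size factors, library size only, other filters, a prior count of 4, other thresholds, counts divided by 4, a block for replicate number, fits on only the 4 libraries compared, and each library left out. The fits were tested on simulated data. Figures were drawn with matplotlib 3.10.9.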

Additional observations from a re-analysis of the deposited data

Results flagged for a closer look

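For 6 members the CC responses of the libraries labelled normal and steatotic differed by a test of the difference itself (edgeR's quasi-likelihood test, adjusted p under 0.05, 2 libraries per group, values as steatotic minus normal on the log2 scale). *Cxcl13* differed by 1.98, *Cxcl2* by 1.37, *Cxcl3* by 1.33 and *Ccl6* by 0.55. *Ccr3* differed by -0.92 and *Ccl5* by -0.47. The call of *Cxcl13* was lost without normal CC replicate 1, normal CC replicate 2 or steatotic Veh replicate 2. The other 5 differences were called under every alternative of scaling, filter, tool, block and left-out library, apart from the 3 under 1 on the log2 scale when a change beyond 1 was also required.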

How the results depend on the processing

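Of 98 called changes of members, none reversed under 19 alternatives, 49 were called under all of them and 77 under all but the one that also required a log2 change beyond 1. With that requirement the counts became 3 lower for the labels with Veh, 5 raised and 1 lowered by CC with the label normal, 2 lowered with the label steatotic, 0 lower for the difference between responses and 2 lower for the labels with CC. Leaving out each library gave 18 to 20 higher and 5 to 9 lower for the labels with Veh, 11 to 14 raised and 4 to 6 lowered by CC with the label normal, 12 to 15 and 3 to 7 with the label steatotic, 3 to 5 and 2 to 2 for the difference, and 18 to 20 and 2 to 4 for the labels with CC. Counts changed by over 1.5 times without normal Veh replicate 1 or steatotic Veh replicate 2 (5 lower for the labels with Veh in each), without steatotic Veh replicate 2 or steatotic CC replicate 1 (4 and 3 lowered by CC with the label steatotic) and without normal CC replicate 1 or steatotic CC replicate 2 (2 lower for the labels with CC in each). In these fits the lone library of a group is assumed to vary like the others. Values that were not called turned sign without steatotic CC replicate 2, and over the fits without 1 library they ranged from -0.0406 to 0.524 for *Cxcl13* and from -0.684 to 0.141 for *Cxcl5* (CC with the label steatotic), from -0.131 to 0.0306 for *Ccr1* (difference between responses) and from -0.131 to 0.0845 for *Ccl2* (labels with CC), which was 0.0305 without steatotic CC replicate 2 and highest without normal CC replicate 1. The cause was not tested. Same-numbered libraries deviated from their group means with correlations of -0.00485 to 0.0629. These values cannot show whether same-numbered libraries came from the same animals, and the main fit assumed no pairing. With the replicate block the counts were 19 higher and 8 lower, 12 and 6, 13 and 6, 4 and 2, and 19 and 4 in the same order. Depth limits statements on the 17 members under 10 CPM.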
